A study of Mus musculus with 4 samples.

Results

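The chromosomal passenger complex (CPC) and its centromere partners were followed in RNA-seq of mouse embryonic stem cells (mESCs) that lack the kinase Haspin. The 9 genes were chosen by name among the 55401 genes of the deposited table. They comprised Aurkb, Aurkc, Incenp, Birc5 and Cdca8, which encode subunits of the CPC, and Sgo1, Sgo2a, Bub1 and Vrk1, which encode its centromere partners. All 9 passed the filter on low counts and were among the 15580 genes tested. The samples were 2 libraries of WT E14 mESCs and 2 libraries of Haspin-KO E14 mESCs, each group numbered as replicates 1 and 2. E14 is an established mESC line, and the cells were kept in knockout-DMEM with fetal bovine serum, LIF and the 2i inhibitors. No further treatment is named for the RNA-seq. Haspin-KO cells were obtained by transfection with Cas9 and a pair of guide RNAs in the Haspin coding sequence. They were selected with puromycin and picked as single clones without H3T3ph, and the paper describes no such selection of the WT cells. The labels do not give the clone behind each library. Nothing in the labels says that the libraries of a group came from separate cultures, so the p values measure only the spread between these libraries. RNA in bulk was measured, and fewer cells in mitosis cannot be told apart from less RNA per cell.

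Haspin phosphorylates histone H3 on threonine 3 at mitotic centromeres, and this mark (H3T3ph) is bound by survivin, the product of Birc5. Bub1 phosphorylates histone H2A nearby, and this second mark is bound by the shugoshins, which in turn bind borealin, the product of Cdca8. The CPC corrects wrong attachments of microtubules to kinetochores through its kinase subunit. The comparison therefore addressed whether cells without Haspin expressed the genes of the complex that its mark recruits at another level.

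None of the 9 genes was a DEG, defined as an adjusted p under 0.05 with a fold change over 2, in a series in which 0.828% of the genes tested were DEGs (129 of 15580, 51 higher and 78 lower in Haspin-KO cells). None had an adjusted p under 0.05 without a minimum fold either, against 2.5% of all genes tested, and the smallest adjusted p among the 9 was 0.139 (Benjamini-Hochberg adjustment of edgeR's quasi-likelihood p values). An unadjusted p under 0.05 was found for 2 of the 9, Aurkb and Aurkc, against 20.8% of all genes tested. Both Haspin-KO libraries lay below both WT libraries for 4 genes (Aurkb, Aurkc, Incenp and Birc5), against 26.9% of all genes tested. Both lay above both WT libraries for 3 genes (Sgo1, Sgo2a and Bub1), against 25.3% of all genes tested. The groups overlapped for Cdca8 and Vrk1. The median log2 fold change of the 9 genes was -0.04, and that of all genes tested was -0.0039.

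The libraries held 21834847 and 17452307 counts in WT and 14207828 and 14436750 counts in Haspin-KO cells, so the deepest library had 1.54 times the counts of the shallowest. Haspin itself, which checks the labels, had 40.1 and 35.7 CPM (counts scaled to the library size after TMM normalization) in WT and 10.4 and 14.6 CPM in Haspin-KO cells. On the log2 scale its difference was -1.60 (SE 0.16, adjusted p = 0.00154 from edgeR). The labelled cell type was checked against 10 mESC markers, of which all were tested and none had an adjusted p under 0.05. At an unadjusted p under 0.05 from edgeR, 1 was higher and 3 were lower, beside 20.8% of all genes tested in either direction. Sall4 was at 0.25 and Klf4 at -0.29 on the log2 scale. The summed FPKM of the 10 markers was 3536 and 3607 in WT and 3275 and 3211 in Haspin-KO cells. Dppa5a made up a large part of it, with means of 1572 FPKM in WT and 1365 FPKM in Haspin-KO cells. Markers of embryonic fibroblasts, which served as feeder cells at passage, moved with the groups. Of 12 such markers 11 were tested and 8 were DEGs, all lower in Haspin-KO cells. Their summed FPKM was 60.4 and 44.0 in WT and 6.86 and 7.68 in Haspin-KO cells, and 4 of the 12, among them Lox and Postn at 0 counts, had at most 3 counts in both Haspin-KO libraries. Of 14 markers of 2-cell-like cells, 11 were tested and 5 were DEGs, all higher in Haspin-KO cells, with a summed FPKM of 34.9 and 33.8 in WT and 88.2 and 66.9 in Haspin-KO cells. The paper names gelatin-coated dishes for assays, and the sources do not say whether feeder cells were present when RNA was taken. Whether these fibroblast and 2-cell-like markers came from other cells was not tested. The part of any such cells in the values below was not tested either.

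The levels of the 9 genes were compared by FPKM, which divides the counts by the exonic length and by the library total. Birc5 was listed at 53.1 and 48.8 FPKM in WT and at 46.7 and 44.5 FPKM in Haspin-KO cells. Incenp, the scaffold of the complex, was listed at 48.3 and 50.4 FPKM in WT and at 46.0 and 46.8 FPKM in Haspin-KO cells. These neighbours in the order overlapped, with mean levels that differed 1.01-fold. Bub1 came next, with 39.4 and 41.9 FPKM in WT and 44.0 and 42.8 FPKM in Haspin-KO cells. Aurkb, the catalytic subunit in most dividing cells, had 28.1 and 28.6 FPKM in WT and 25.1 and 24.9 FPKM in Haspin-KO cells. Cdca8 followed with 26.5 and 24.8 FPKM in WT and 25.4 and 24.7 FPKM in Haspin-KO cells, and its range overlapped that of Aurkb.

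The shugoshins and Vrk1 were less abundant. Sgo1, which protects centromeric cohesion in mitosis, had 20.4 and 20.98 FPKM in WT and 23.4 and 23.1 FPKM in Haspin-KO cells. Vrk1, a nuclear kinase that also acts on histone H3, had 16.4 and 15.8 FPKM in WT and 16.4 and 17.6 FPKM in Haspin-KO cells. Sgo2a had 10.01 and 9.34 FPKM in WT and 10.7 and 10.05 FPKM in Haspin-KO cells. Aurkc, the Aurora kinase known from meiotic cells and early embryos, was the lowest of the 9, with 2.65 and 1.77 FPKM in WT and 1.39 and 0.77 FPKM in Haspin-KO cells. Its mean level was 6.10-fold under that of Sgo2a, whereas the steps between the other neighbours lay between 1.01-fold and 1.65-fold. Over the 4 libraries the ranges of Birc5 and Incenp and those of Aurkb and Cdca8 overlapped, and each other pair of neighbours was apart. Among all genes tested, the mean FPKM of the 9 lay between the 29.4th percentile (Aurkc) and the 93.2nd percentile (Birc5).

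**Figure D1:**
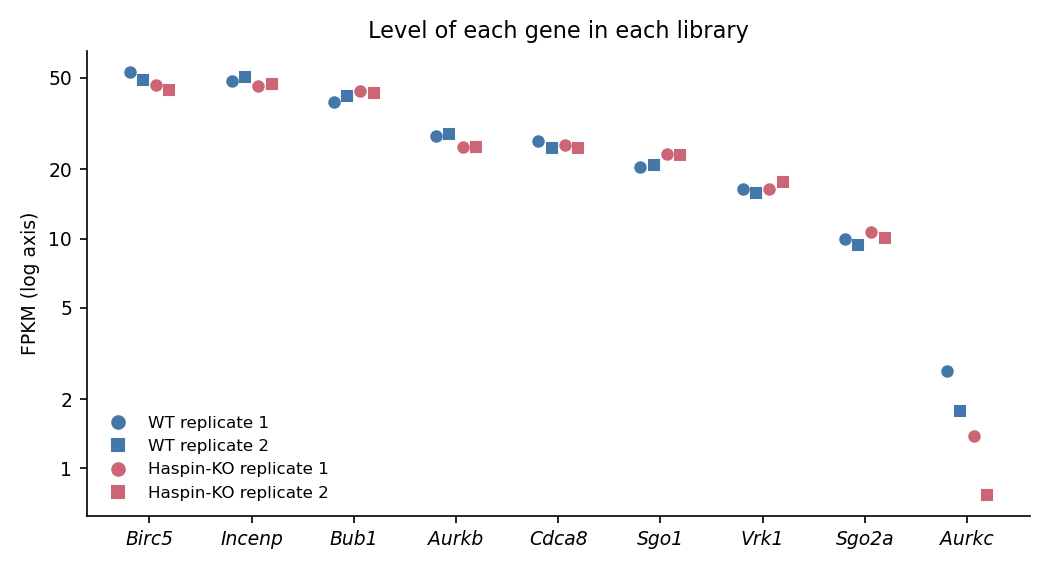
Level of each of the 9 genes in each of the 4 libraries, as deposited FPKM on a log axis, with WT in blue, Haspin-KO in red, circles for replicate 1 and squares for replicate 2. The genes are ordered by their mean level, 8 of the 9 have a mean above 10 FPKM, and Aurkc stands below the rest in every library.

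Promoter sequence was looked at because many genes of late cell cycle share an element named CHR, with the letters TTTGAA or TTCGAA, beside CCAAT boxes. RefSeq windows from 250 bases before to 50 bases after a start (GRCm38.p6) were given for 7 of the 9 genes, in 11 windows, and not for Aurkb and Incenp. Both strands were searched. The letters TTCGAA, which read alike on both strands, were found in 2 of the 11 windows, those of Bub1 and Sgo1, and in 1.56% of all 32851 windows. The letters TTTGAA were found in 4 of the 11 and in 17.9% of all windows. Those 4 came from 2 genes, the window of Cdca8 and several windows of Vrk1. CCAAT was found in 7 of the 11, from 6 genes, and in 37.4% of all windows. Windows of 1 gene are not independent. The Birc5 window held none of these letters. The fragments of Bub1 and Sgo1 in which TTCGAA lies just after the start are shown with these letters in capitals, 5′ to 3′ on the strand of the gene.
Bub1: gcgcggggaaTTCGAAtcgccggcgg
Sgo1: aacgcagaatTTCGAAtgtggcggcg
The fragments are those at chr2:127831830-127831855 and chr17:53689273-53689298, both on the minus strand. Counted from 1 at the start, the letters in capitals began at position 15 in Bub1 and at position 28 in Sgo1, and neither overlapped a CCAAT box. A match is a string of letters and does not show that a factor binds there.

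Aurkb (ENSMUSG00000020897, mm10 chr11:69045647-69051664, plus strand) had 1805 and 1471 counts in WT and 1052 and 1060 counts in Haspin-KO cells. After TMM normalization these were 82.6 and 84.9 CPM in WT and 73.2 and 74.2 CPM in Haspin-KO cells. Both Haspin-KO libraries lay below both WT libraries, and the spread within each group was small beside the gap. The log2 fold change was -0.18 (SE 0.08, 95% interval -0.36 to -0.0053), a difference of -11.9%, with an unadjusted p of 0.0447 and an adjusted p of 0.228 from edgeR. Birc5 (ENSMUSG00000017716, chr11:117849251-117855743, plus strand) had 181 and 167 CPM in WT and 157 and 153 CPM in Haspin-KO cells. Its Haspin-KO libraries also lay below both WT libraries, and the WT libraries lay farther apart than the Haspin-KO libraries. The log2 fold change of Birc5 was -0.17 (SE 0.08, 95% interval -0.33 to 0.0038), with an adjusted p of 0.249 from edgeR.

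Incenp (ENSMUSG00000024660, chr19:9872296-9899551, minus strand) had 209 and 220 CPM in WT and 197 and 205 CPM in Haspin-KO cells. The nearest libraries of the groups, at 205 and 209 CPM, lay closer to each other than the libraries within either group. Its log2 fold change was -0.09 (SE 0.07, 95% interval -0.25 to 0.07), with an adjusted p of 0.495 from edgeR. Cdca8 (ENSMUSG00000028873, chr4:124918465-124939311, minus strand) had 137 and 129 CPM in WT and 130.2 and 129 CPM in Haspin-KO cells, and the groups overlapped. Its log2 fold change was -0.04 (SE 0.07, 95% interval -0.21 to 0.13), and without WT replicate 1 it was 0.0023. Exons of Cdca8 overlapped those of 9930104L06Rik on the opposite strand over 232 bases, and the counting was not stated to use strand.

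The counts of Aurkb, Incenp, Birc5 and Cdca8 were also summed, because their products form 1 complex. The sum was 609.3 and 600.9 CPM in WT and 557.8 and 561.8 CPM in Haspin-KO cells. The libraries of each group lay close together, and the mean of Haspin-KO cells differed from that of WT by -7.50% (95% interval -16.3% to 2.25%). The 3 tested genes whose profile over the 4 libraries was nearest to that of the sum were Klhl3, Hdgf and Gm48701, at Euclidean distances of 0.0079, 0.00865 and 0.00875 between centred log2 CPM values. With 4 libraries such likeness is common, and 1114 genes lay within a distance of 0.1.

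Aurkc (ENSMUSG00000070837, chr7:6995300-7003091, plus strand) had the largest fold difference of the 9 and the fewest reads. It had 88 and 47 counts in WT and 30 and 17 counts in Haspin-KO cells, which were 4.03 and 2.71 CPM in WT and 2.09 and 1.19 CPM in Haspin-KO cells. Both Haspin-KO libraries lay below both WT libraries, but the WT libraries themselves differed by 0.57 on the log2 scale. Counting error alone gave 95% Poisson intervals of 1.99 to 3.61 CPM for WT replicate 2 and of 1.41 to 2.98 CPM for Haspin-KO replicate 1, which overlapped. The log2 fold change was -1.05 (SE 0.35, 95% interval -1.84 to -0.26), a difference of -51.6%, with an unadjusted p of 0.0148 and an adjusted p of 0.139 from edgeR. Without Haspin-KO replicate 1 the log2 fold change was -1.51 and the adjusted p was 0.0161 from edgeR. Without Haspin-KO replicate 2 it was -0.71 and without WT replicate 1 it was -0.73, with adjusted p values of 0.305 and 0.570 from edgeR. With the replicate number as a block, which no label ties to a shared batch, it was -1.04 and the adjusted p was 0.00377 from edgeR.

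Of the reads on both Aurora kinases of the complex, Aurkc held 4.65% (95% Wilson interval 3.79% to 5.69%) and 3.10% (2.34% to 4.09%) in WT. In Haspin-KO cells it held 2.77% (1.95% to 3.93%) and 1.58% (0.988% to 2.51%). Aurkb thus made up most of these reads in every library, and the intervals, which cover counting error only, overlapped between WT replicate 2 and Haspin-KO replicate 1. Reads on Aurkc could not all be placed with certainty. Of its 1667 different 50-base words, 54.8% also occurred in transcripts of 10 other genes of GENCODE M21, and how reads with several matches were counted was not stated. The most counted of these was Gm12463 on chromosome 4, with 40 and 25 counts in WT and 18 and 11 counts in Haspin-KO cells. Summed with all 10 copies, Aurkc had 134 and 76 counts in WT and 52 and 33 counts in Haspin-KO cells, and the log2 fold change of the sum was -0.83 (SE 0.29, 95% interval -1.48 to -0.19).

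Of the centromere partners, Sgo1, Bub1 and Sgo2a had Haspin-KO libraries above WT in the counts as deposited, and Vrk1 overlapped. Sgo1 (ENSMUSG00000023940, chr17:53674786-53689333, minus strand) had 77.8 and 80.5 CPM in WT and 88.4 and 88.8 CPM in Haspin-KO cells. Both Haspin-KO libraries lay above both WT libraries, by more than the spread within either group. The log2 fold change of Sgo1 was 0.16 (SE 0.08, 95% interval -0.01 to 0.34), with an unadjusted p of 0.0657 and an adjusted p of 0.271 from edgeR. Bub1 (ENSMUSG00000027379, chr2:127801122-127831865, minus strand), the kinase that makes the histone H2A mark and serves the spindle checkpoint, had 172 and 184 CPM in WT and 189.5 and 189 CPM in Haspin-KO cells. The Haspin-KO libraries of Bub1 lay above both WT libraries, which were the farther apart. The log2 fold change of Bub1 was 0.09 (SE 0.07, 95% interval -0.07 to 0.25), with an adjusted p of 0.515 from edgeR.

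Sgo2a (ENSMUSG00000026039, chr1:57995971-58025899, plus strand), a shugoshin known for its part in meiosis, had 70.1 and 65.9 CPM in WT and 74.2 and 71.2 CPM in Haspin-KO cells. The groups did not overlap, but WT replicate 1 and Haspin-KO replicate 2 lay closer together than the libraries within a group. Its log2 fold change was 0.10 (SE 0.08, 95% interval -0.09 to 0.28), with an adjusted p of 0.548 from edgeR. Of the 50-base words of Sgo2a, 34.0% also occurred in Sgo2b or Kctd18, and its exons overlapped those of Kctd18 on the opposite strand over 2455 bases. Sgo2b had 50 and 45 counts in WT and 41 and 29 counts in Haspin-KO cells, and the sum of Sgo2a and Sgo2b had a log2 fold change of 0.09 (SE 0.08). Vrk1 (ENSMUSG00000021115, chr12:106010228-106077426, plus strand) had 83.8 and 81.3 CPM in WT and 83.1 and 91.2 CPM in Haspin-KO cells. The groups overlapped, and the log2 fold change was 0.08 (SE 0.08, 95% interval -0.11 to 0.27).

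For 8 of the 9 genes, all but Aurkc, the 95% interval lay within a 1.5-fold change in either direction. The SE of these 8 genes lay between 0.07 and 0.08, against a median SE of 0.14 over all genes tested. A difference of the size seen in Haspin was therefore outside the interval of each of the 8.

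**Figure D2:**
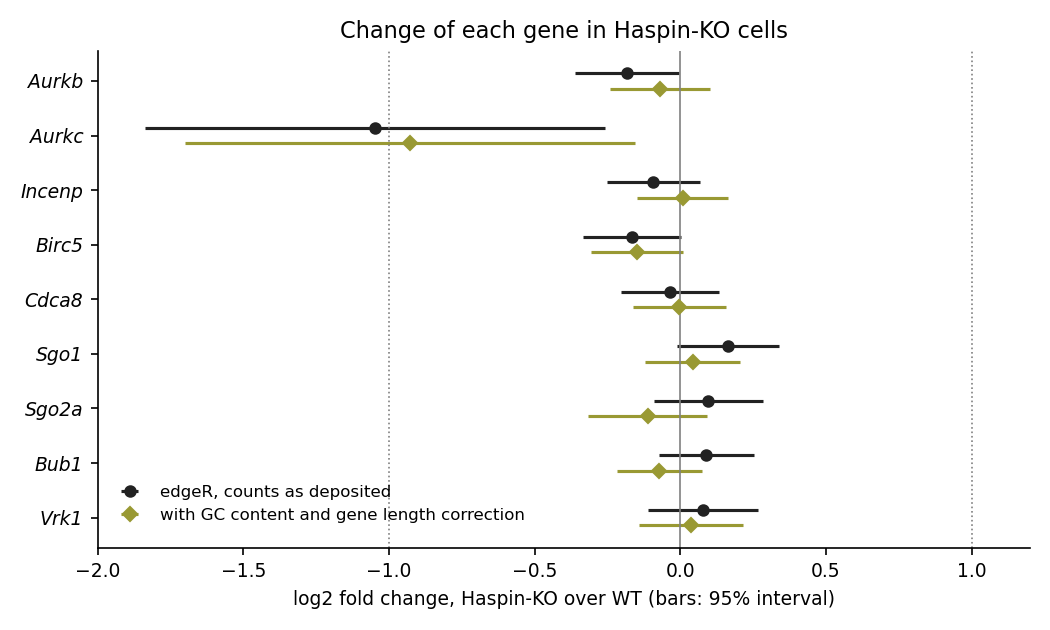
Log2 fold change of each gene in Haspin-KO over WT cells, with 95% intervals as bars and dotted lines at a 2-fold change. Values are from edgeR on the counts as deposited (black circles) and after correcting for GC content and exonic length (olive diamonds). Apart from Aurkc, at -1.05 and -0.93, all values lie between -0.18 and 0.16.

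Ratios between members within 1 library do not depend on the library total. The ratio of Sgo1 to Aurkb was 0.728 and 0.733 in WT and 0.933 and 0.925 in Haspin-KO cells, a 1.27-fold difference. The ratio of Bub1 to Aurkb was 1.41 and 1.47 in WT and 1.75 and 1.72 in Haspin-KO cells, a 1.21-fold difference. Both ratios were higher in each Haspin-KO library than in each WT library. The ratios were not corrected for GC content, which was 53.3% in Aurkb, 42.2% in Sgo1 and 40.6% in Bub1. With the GC correction described below, log2 fold changes were -0.07 in Aurkb, 0.04 in Sgo1 and -0.07 in Bub1. Sgo1 thus still lay above Aurkb with the correction, by less than in the counts as deposited, and Bub1 did not. The ratios given here are those of the counts as deposited, and the part of GC content in them was not tested. Aurkc over Aurkb differed most of the 9 ratios computed, with 0.0944 and 0.0619 in WT and 0.0553 and 0.0309 in Haspin-KO cells. Among the other subunits the differences were smaller. Aurkb over Incenp was 0.581 and 0.567 in WT and 0.546 and 0.532 in Haspin-KO cells. Birc5 over Incenp was 1.10 and 0.968 in WT and 1.01 and 0.951 in Haspin-KO cells, and the groups overlapped. Cdca8 over Incenp was 0.548 and 0.492 in WT and 0.552 and 0.528 in Haspin-KO cells, and these groups overlapped too. With 2 libraries against 2, an exact two-sided permutation test of a ratio cannot give a p below 0.333, so the ratios are given as values, and the pairs were chosen with the levels known.

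**Figure D3:**
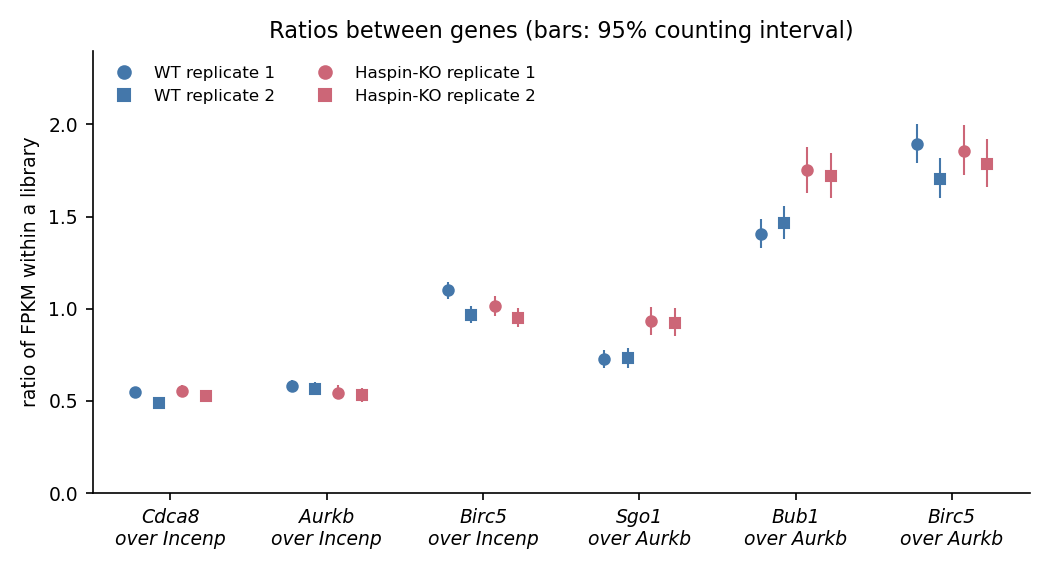
Ratio of the FPKM of 2 genes within each library, with WT in blue, Haspin-KO in red and 95% intervals for counting error as bars. Sgo1 over Aurkb and Bub1 over Aurkb lie higher in both Haspin-KO libraries, at 0.925 to 0.933 and 1.72 to 1.75, and the other 4 ratios plotted differ less. Aurkc over Aurkb is not plotted, and the ratios are not corrected for GC content.

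The GC content of the transcripts moved with these values. Across 15568 tested genes, which are not independent replicates, the log2 fold change had a Spearman correlation of -0.395 with GC content. The median log2 fold change was 0.30 for genes with 35% to 37.5% GC, 0.0070 for genes with 47.5% to 50% and -0.15 for genes with 60% to 62.5%. The subunits of the complex had the higher GC content, with 48.3% in Birc5, 50.7% in Cdca8, 51.4% in Aurkc, 53.3% in Aurkb and 54.6% in Incenp. The partners had 39.5% in Sgo2a, 40.6% in Bub1, 42.2% in Sgo1 and 46.6% in Vrk1. Genes within 1 percentage point of the GC content of Sgo1 had a median log2 fold change of 0.16, the value of Sgo1 itself. Those around Incenp had a median of -0.11, those around Aurkb of -0.09, those around Bub1 of 0.19 and those around Birc5 of 0.02.

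After correction for GC content and exonic length (loess offsets), chosen after the data were seen, the correlation was -0.0341. Sgo1 then had a log2 fold change of 0.04, Aurkb of -0.07 and Incenp of 0.0082. Bub1 and Sgo2a changed sign with the correction, to -0.07 and -0.11, as did Incenp. Birc5 kept most of its difference, at -0.15 (SE 0.07, adjusted p = 0.360 from edgeR). Aurkc remained at -0.93 (SE 0.34, 95% interval -1.70 to -0.15, adjusted p = 0.244 from edgeR). The split into lower subunits and higher partners was thus not kept, with 6 of the 9 genes below 0, among them Bub1 and Sgo2a. No member was a DEG or had an adjusted p under 0.05 after the correction, while 89 genes of all those tested were DEGs and Haspin had a log2 fold change of -1.51.

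**Figure D4:**
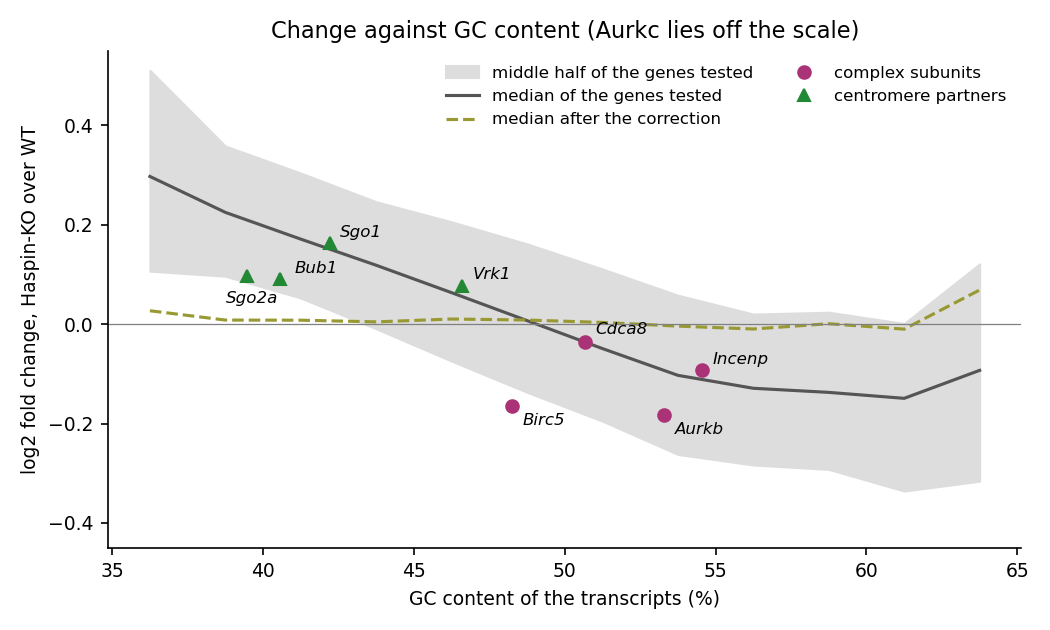
Log2 fold change against the GC content of the transcripts, with the median (line) and the interquartile range (grey) of the genes tested in bins of GC content, the median after the correction (dashed), subunits of the complex as circles and partners as triangles. Sgo1, Vrk1, Cdca8 and Incenp lie close to the line, Bub1, Sgo2a, Aurkb and Birc5 lie under it, and Aurkc, at -1.05, lies off the scale.

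Around the complex, 103 further genes were listed in 7 groups by the role of their products, and 101 were tested. None was a DEG and none had an adjusted p under 0.05 in edgeR, with a smallest adjusted p of 0.0507. An unadjusted p under 0.05 was found for 21 higher and 4 lower genes of the 101. In either direction 20.8% of all genes tested passed this cutoff, and the share in each direction alone is not given here. Both Haspin-KO libraries lay above both WT libraries for 34 of the 101 (33.7%, against 25.3% of all genes tested) and below for 14 (13.9%, against 26.9%). The median log2 fold change of the 101 was 0.06, and with the GC correction it was 0.01. After the correction 7 were higher and 4 were lower at an unadjusted p under 0.05, and the share of all genes is not given here.

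Among 16 genes whose products activate, carry or remove the complex, Klhl13, an adaptor of the Cul3 ubiquitin ligase that removes Aurora B from mitotic chromosomes, had the smallest adjusted p. Klhl13 had 80.2 and 85.8 CPM in WT and 63.1 and 64.7 CPM in Haspin-KO cells, with a log2 fold change of -0.38 (adjusted p = 0.0507 from edgeR). With the GC correction it was at -0.48 and its adjusted p was 0.0195 from edgeR, the only one of the 101 under 0.05. The share of all genes tested with an adjusted p under 0.05 in that fit is not given here, so this count has no background beside it. Klhl9, a further adaptor of this ligase that is named here after its value was seen, lay on the other side, with 27.9 and 38.0 CPM in WT and 43.7 and 47.6 CPM in Haspin-KO cells. Klhl9 had a log2 fold change of 0.48 (adjusted p = 0.105 from edgeR), the highest of the 16, and of 0.36 with the GC correction. Cul3 itself was at 0.26 and Xpo1, the export receptor that binds survivin, at 0.28, and both lay at 0.05 and 0.08 after the correction. Plk1, a mitotic kinase, was at -0.07, and at 0.08 after the correction. Of the 16 genes, 5 were higher and 1 was lower at an unadjusted p under 0.05, beside 20.8% of all genes tested in either direction.

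Substrates of the complex at centromere and midzone gave 3 higher and 0 lower genes of 16 tested at an unadjusted p under 0.05. In either direction 20.8% of all genes tested passed this cutoff, which stands beside each count in this paragraph. Knl1, the kinetochore platform for Bub1, had a log2 fold change of 0.28 and Ect2, which acts in cytokinesis, of 0.20. With the GC correction these were 0.03 and 0.05. Racgap1 and Bod1 were at -0.11 and -0.12, against -0.12 and 0.06 with the correction. Among 17 subunits and regulators of the PP1 and PP2A phosphatases, 5 were higher and 0 were lower. Ppp1r10 was at 0.25, Set at 0.20, Ppp2cb at -0.20 and Ppp2r1a at -0.14. With the correction these 4 were at 0.32, 0.16, -0.04 and -0.04. The 12 checkpoint partners of Bub1 gave 1 higher gene, which was Knl1 again. Bub3, the direct partner of Bub1, was at -0.22, Mad1l1 at -0.19 and Ttk at 0.16, against -0.27, -0.06 and 0.06 with the correction.

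The 16 genes of cohesion at the inner centromere had the highest median of the 7 groups, 0.12, and a median GC content of 42.5%. Of these, 6 were higher and 0 were lower at an unadjusted p under 0.05, and the median after the correction was 0.03. The same cutoff was passed by 20.8% of all genes tested in either direction, also for the lists that follow. Nipbl, the cohesin loader, was at 0.29 and Pds5a at 0.27, against 0.13 and 0.04 after the correction. Mau2 was at -0.19 and Smc1a at -0.13, and both were at -0.17 after the correction. The 19 genes of centromere chromatin gave 2 higher and 1 lower, with Cenpp at 0.30, Cenpb at -0.21 and Cenpo at -0.19. After the correction these were at 0.16, -0.11 and -0.20. Around Vrk1, 0 were higher and 2 were lower of 6 tested. These were Banf1, a DNA-binding protein that Vrk1 phosphorylates, at -0.32 (adjusted p = 0.0711 from edgeR), and Emd, a protein of the nuclear envelope, at -0.27, and with the GC correction both were at -0.14. Vrk2 was at 0.22 and Ankle2 at 0.03, against 0.10 and -0.01 with the correction.

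**Figure D5:**
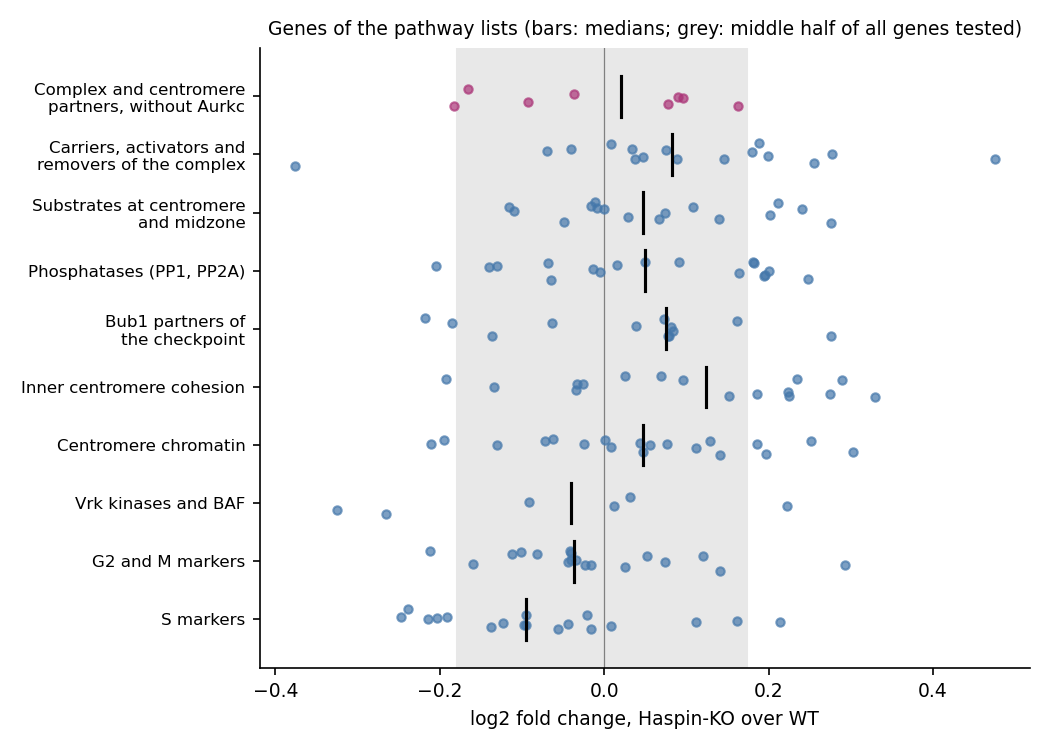
Log2 fold change of each tested gene (points) of the 9 genes without Aurkc, the 7 groups around the complex and the markers of G2 and M and of S, with the median of each list as a bar and the interquartile range of all genes tested, -0.18 to 0.17, in grey. In the lists plotted, medians lie between -0.09 for S markers and 0.12 for cohesion, and Klhl13, at -0.38, is the lowest point. Markers of mESCs, fibroblasts and 2-cell-like cells are not plotted.

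Levels of cell cycle genes bear on the comparison, because most of the 9 genes are expressed mainly in G2 and M. The paper also measured cell cycle phases by flow cytometry and describes no impairment in Haspin-KO cells, though their growth was slower. That measure took G2 and M together. The 18 markers of G2 and M had a summed FPKM of 811.8 and 769.8 in WT and 775.3 and 782.2 in Haspin-KO cells, and the groups overlapped. Their median log2 fold change was -0.04, both as deposited and with the GC correction. At an unadjusted p under 0.05, 1 was higher and 1 was lower, beside 20.8% of all genes tested in either direction. Hmmr was at 0.29 and Ccnb2 at -0.21, against 0.16 and -0.14 with the correction. The 18 markers of S had a median of -0.09, and of -0.07 with the correction. At the same cutoff 0 were higher and 5 were lower, beside the same share of all genes tested. Mcm5 was at -0.25 and Gins2 at -0.24, against -0.15 and -0.14 with the correction. No marker of either phase had an adjusted p under 0.05 in edgeR. The 4 paralogues of members gave no gene at an unadjusted p under 0.05, and Aurka, the Aurora kinase of spindle poles, was at 0.0085.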

How the data were processed

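Per the labels, RNA was extracted with TRIzol from 2 WT and 2 Haspin-KO samples and made into libraries with a SMARTER kit. The submitters' processing notes name Cutadapt (1.9.1), HISAT2 (2.0.1), HTSeq (0.6.1), DESeq2 and mm10. The authors deposited raw counts per gene without normalization, and deposited FPKM values that equal counts over exonic length and library total in 100% of values. The strand setting, the annotation release and the treatment of reads with several matches were not given in the sources used here.

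From the counts, the 15580 genes that passed edgeR's filter were normalized by TMM and tested by the quasi-likelihood method of edgeR (4.0.16, R 4.3.3), with p values adjusted over all of them. The SE is the log2 fold change over the square root of F. DESeq2 (1.42.0), limma (3.58.1) on log2(FPKM + 0.1) or log2(FPKM + 1), other filters and scalings, the replicate block and leaving out each library were alternatives. Chosen after the data were seen were loess offsets (span 0.3) for GC content and length, and the sums over gene copies. The fits and the GC correction were tested on simulated data. Member coordinates equalled those of GENCODE M21 (GRCm38) for 9 of 9 genes.

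The members and all lists were chosen with earlier results of these data known. Genes named were the 9 members, Haspin, the 3 genes nearest in profile to the summed subunits, and of each list those with an adjusted p under 0.05 and at least the 2 smallest p values in each direction. Not all of these are given in the text, and some items are not reported here.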

Additional observations from a re-analysis of the deposited data

How the results depend on the processing

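Over 14 alternatives, Aurkb, Aurkc and Birc5 stayed below 0 and Sgo1 and Vrk1 above 0 in each, at -0.21 to -0.07, -1.51 to -0.63, -0.22 to -0.11, 0.04 to 0.19 and 0.0050 to 0.15. The number of members called, 0 of 9, was 1 (Aurkc) without a filter on low counts (-1.08, adjusted p = 0.0268 from edgeR), 2 at an unadjusted p, and 0 to 1 when each library was left out, with 1 only without Haspin-KO replicate 1. With the replicate block 1 member was called (Aurkc, -1.04, adjusted p = 0.00377), and Aurkb and Birc5 had adjusted p values of 0.0436 and 0.0424 at -0.18 and -0.16. Differences between replicates 1 and 2 in the groups correlated at 0.338 across genes, but no label ties the numbers to a shared batch, and the block leaves 1 residual degree of freedom. The block also raised the number of DEGs among all genes tested from 129 to 407. The share of all genes with adjusted p values as small as those of Aurkb and Birc5 under the block is not given here. The share called without the filter on low counts, or without Haspin-KO replicate 1, is not given either. Whether members passed more often than other genes under these settings was not tested.

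Values turned direction for Cdca8 without WT replicate 1 (0.0023, in a range from -0.0765 over the libraries left out), and with the GC and length correction for Incenp (0.0082, and 0.0085 with the replicate block), Sgo2a (-0.11 in both) and Bub1 (-0.0726, and -0.0725 with the block). With that correction and the block, Aurkc was at -0.92 (adjusted p = 0.0170 from edgeR). How many of all genes had an adjusted p this small in that fit is not given here. With limma on log2(FPKM + 0.1) and log2(FPKM + 1), 0 genes were called for Haspin (-1.59 and -1.42), the fibroblast markers (8 in edgeR) and the 2-cell-like markers (5 in edgeR). A minimum of 10 counts left 4 fibroblast markers called. For the 2-cell-like markers it was 9 with the block, 2 with the correction, and 2 to 6 when each library was left out. Without division by length, 3 of the 9 genes kept their place in the order of levels. The causes were not tested. Depth limits Aurkc, with 17 to 88 counts a library.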
